A study of Caenorhabditis elegans with 80 samples.

Results

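The C-type lectin genes of Caenorhabditis elegans were followed across 5 ages of wild-type worms and in a daf-16 mutant. They were taken as every gene with a WormBase symbol of the form clec-number, which gave 237 genes. These stand for 240 of the 46904 gene IDs counted, because clec-15, clec-209 and clec-249 each belong to 2 gene IDs, whose counts were added. The choice used names and no measured value.

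C-type lectin domains are protein folds that in many animals bind sugars, often with the help of calcium. In C. elegans the family is very large, many members carry a secretion signal, and a number of them are induced in the intestine when worms feed on pathogenic bacteria. Some are used as readouts of the PMK-1 p38 MAP kinase pathway, which drives much of the intestinal defence, and of other immune pathways. For most members neither the ligand nor the function is known.

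RNA of whole hermaphrodite worms was read in pairs of 150 nucleotides, and the 80 libraries held 34.4 to 44.2 counts each in units of 1e+06. Wild-type N2 worms were harvested on days 6, 8, 11, 14 and 18, giving 6 libraries for each age, here the time course. CF1038, a strain that carries the daf-16 allele mu86, was collected on day 6 in 20 libraries and was compared with 30 further N2 libraries of day 6, the larger N2 set. Worms of both strains grew at 20 °C on OP50-1 Escherichia coli with streptomycin, and FUDR, which blocks DNA synthesis and so the production of progeny, was present for all groups. No label ties a library to its own culture, and p-values therefore measure a spread between libraries that may be technical. CF1038 is a single strain, so the effect of mu86 and of anything else in its background cannot be told apart.

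The gene daf-16 itself, which encodes the FOXO transcription factor downstream of insulin signalling, stood at 94.1 ± 8.42 CPM (read counts scaled to a common library total of 1e+06) in CF1038 (SD, n = 20) and 165 ± 15.1 CPM in the larger N2 set (SD, n = 30). The highest CF1038 library, at 107 CPM, lay below the lowest N2 library, at 134 CPM. The counts cover the whole gene and so do not check the deleted part.

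Of the 237 C-type lectin genes, 84 lie on chromosome V, 53 on IV, 48 on II, 35 on I, 14 on III and 3 on X. Enough reads for a test were present for 149 of them across the ages and for 145 in the strain comparison, 137 of these in both, and 80 were tested in neither. Each of the 88 members without a test over age had a mean under 0.5 CPM at every age. The highest of these means was that of clec-230, 0.356 CPM on day 6. A member that is low at most ages passed this filter only through the age at which it is high, so the tested members are not a sample of the family.

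A few members carried most of the family's reads. The family summed to 6888 ± 531 CPM on day 6 (SD, n = 6), and the 10 highest members held 75.4 percent of that sum. Per length, the highest members over the time course were clec-87 with 1142 CPM per kb of exon, clec-63 with 989 and clec-50 with 482, followed by clec-85, clec-88, clec-62, clec-65, clec-1, clec-91 and clec-146 at 153 to 305 CPM per kb. At days 6 and 18 clec-87 held the largest share of the summed CPM and on days 8, 11 and 14 clec-63 did.

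The summed level was highest on day 8 and lowest on day 18. It stood at 8688 ± 787 CPM on day 8, 7079 ± 823 on day 11, 6941 ± 1803 on day 14 and 3330 ± 674 on day 18 (SD, n = 6 each). The highest day 18 library reached 4255 CPM and the lowest day 6 library 6218 CPM, so these groups did not overlap. In bulk RNA of whole worms, fewer cells of a type and less RNA per cell cannot be told apart.

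The question of the time course was which genes change as N2 worms age, and most C-type lectin genes that could be tested were lower on day 18 than on day 6. A gene was called changed at a Benjamini-Hochberg adjusted p under 0.05 in edgeR's quasi-likelihood test, adjusted over all genes tested. By this rule 94 of 149 tested members fell, or 63.1 percent, against 28 percent of all genes tested, and 25 rose, or 16.8 percent, against 29 percent. Of these, 83 fell and 18 rose by at least 2-fold, a limit for which no share over all genes is given. The median log2 fold change was -1.20 over the tested members and -0.01 over all genes.

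Earlier ages gave a more even picture. At day 8, 16 members rose, or 10.7 percent, against 5.56 percent of all genes, and 13 fell, or 8.72 percent, against 6.11 percent. Without day 6 library 2 or 3, the number that rose on day 8 was 10 or 8. At day 11, 30 members rose, or 20.1 percent against 24.1 percent of all genes, and 29 fell, or 19.5 percent against 19.9 percent, so both shares were near the background. At day 14, 41 rose, or 27.5 percent against 29.8 percent, and 56 fell, or 37.6 percent against 26.9 percent. The medians of the tested members were 0.02 on day 8, -0.04 on day 11 and -0.32 on day 14 on the log2 scale. These comparisons share the 6 day 6 libraries.

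**Figure D1:**
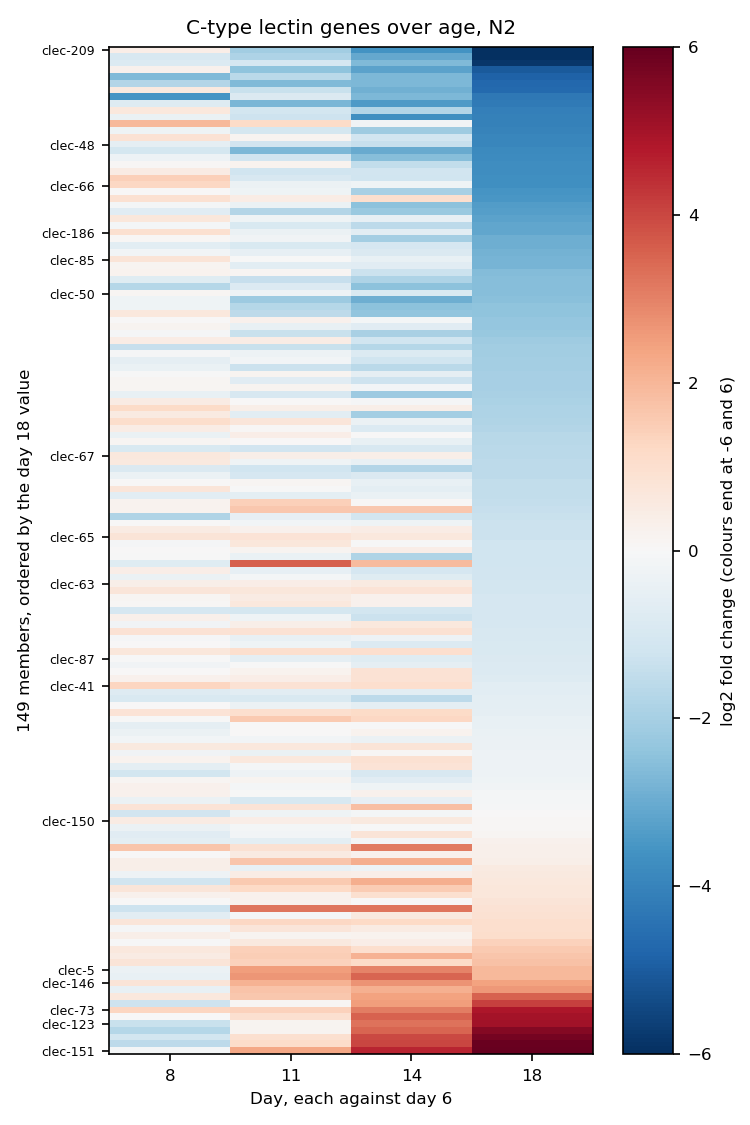
Log2 fold changes of the 149 tested C-type lectin genes on days 8, 11, 14 and 18 against day 6 (columns, n = 6 libraries per age), ordered from the lowest to the highest day 18 value, with some members named. Blue is lower and red is higher than on day 6; the day 18 column is mostly blue, with 94 members called lower and 25 called higher.

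Between successive ages, more falls were called in the last step than in either of the others given here. That step also spans more days than either. From day 14 to day 18, 74 members fell, or 49.7 percent, against 23.5 percent of all genes, and 13 rose, or 8.72 percent against 27.5 percent. From day 8 to day 11, 25 rose, or 16.8 percent against 18 percent, and 26 fell, or 17.4 percent against 11.6 percent. From day 11 to day 14, 12 rose, or 8.05 percent against 10.1 percent, and 15 fell, or 10.1 percent against 4.51 percent. In libraries 1 to 3 alone, 18 members fell from day 11 to day 14 and 71 from day 14 to day 18, with medians of -0.01 and -1.18 on the log2 scale. Over all genes the medians in these libraries were -0.02 and 0.14. More members rose than fell there from day 11 to day 14. In libraries 4 to 6 alone the counts of falls were 31 and 56 and the medians -0.65 and -0.70, with -0.001 and -0.004 over all genes. No shares of all genes called are given for these subsets.

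A joint test over the 5 ages called 133 of the 149 tested members, or 89.3 percent, against 80.2 percent of all genes tested. Of these 133, the highest mean lay on day 6 for 38, on day 8 for 37, on day 11 for 16, on day 14 for 24 and on day 18 for 18. In the same order these were 28.6, 27.8, 12, 18 and 13.5 percent of the 133. Over all genes called by the joint test, the shares were 24.2, 14.2, 12.2, 17.2 and 32.2 percent. The lowest mean lay on day 18 for 87 of the 133 members, or 65.4 percent, while it lay there for 29.6 percent of all genes called by the joint test.

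The largest fall among members with at least 5 CPM was that of clec-209, on chromosome V (WBcel235, 2459637 to 2460893 and 2351676 to 2352932, 2 copies with equal counts in all 80 libraries). Its lowest, median and highest library values were 134, 182 and 332 CPM on day 6, 171, 266 and 421 on day 8, 41.5, 47.1 and 57.2 on day 11, 9.75, 17.2 and 27.8 on day 14, and 0.819, 1.26 and 2.73 on day 18. After day 8, each library of an age lay below each library of the age before. The log2 fold change on day 18 was -7.04 (SE 0.35, adjusted p = 2.99e-16).

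The next largest fall was that of clec-47 (chromosome V, 15175759 to 15176324), from a lowest, median and highest value of 39.2, 49.6 and 85.2 CPM on day 6 to 0.358, 0.651 and 0.917 CPM on day 18. It was already lower on day 8, at 17.3 to 34.3 CPM in its libraries (log2 -0.97, SE 0.25, adjusted p = 0.0124). At day 18 its log2 fold change was -6.45 (SE 0.34, adjusted p = 3.14e-16), and the day 6 and day 18 libraries did not overlap.

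Other large falls on day 18 were those of clec-72 (log2 -5.83), clec-57 (-5.06), clec-169 (-4.67), clec-3 (-4.09), clec-48 (-3.89), clec-66 (-3.66), clec-52 (-3.14) and clec-186 (-3.13). They did not share a course. Of the 6 day 6 libraries of clec-3, library 5 was at 11.6 CPM and the others at 3.2 to 6.2 CPM. In clec-57 the libraries stood at 3.94 to 6.86 CPM on day 6, 5.47 to 7.19 on day 8 and 0.721 to 1.41 on day 11, a drop between days 8 and 11 with no overlap. In clec-186 they stood at 95.3 to 204 CPM on day 6 and 219 to 382 on day 8, on day 14 the change was -0.62 on the log2 scale and not called (adjusted p = 0.0959), and they stood at 7.82 to 30.3 CPM on day 18. With libraries 1 to 3 alone, the day 14 value of clec-186 was 0.27 (adjusted p = 0.354), and with libraries 4 to 6 alone it was -1.85 (adjusted p = 1.38e-05). In clec-66 the day 8 libraries, at 31.8 to 79.8 CPM, all lay above the day 6 libraries, at 15.4 to 30.1 CPM, and the day 18 libraries, at 1.19 to 2.08 CPM, all lay below them.

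The members with the most reads changed by differing amounts, beside a median log2 change of -1.20 over the tested members. The libraries of clec-87 ran from 1332 to 1612 CPM on day 6 and from 705 to 902 CPM on day 18, a log2 change of -0.85 (SE 0.14, adjusted p = 2.98e-06). For clec-50, which lies beside clec-49 on chromosome V, they ran from 617 to 803 CPM and from 60.5 to 177 CPM (log2 -2.55, SE 0.21, adjusted p = 1.21e-11). Neither member's day 6 and day 18 libraries overlapped. Of the 10 highest members per length, clec-62 and clec-91 were not called on day 18, with log2 values of -0.54 and -0.22, clec-146 rose and the other 7 fell.

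**Figure D2:**
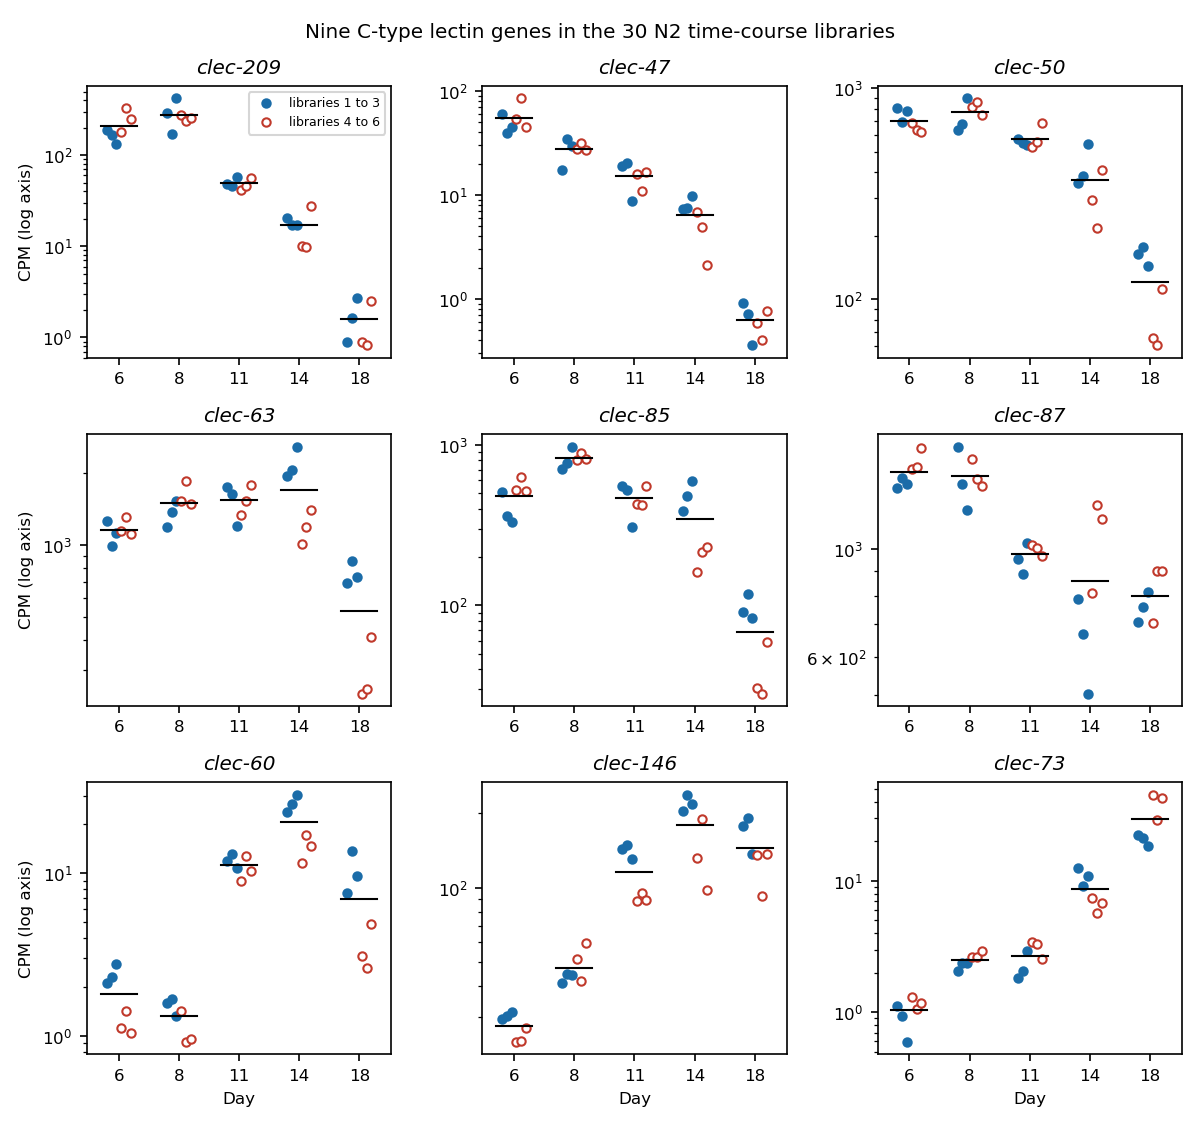
CPM (log axis) of 9 C-type lectin genes in each of the 30 N2 time-course libraries by day; filled points are libraries 1 to 3, open points libraries 4 to 6, and black lines are means of 6 libraries. In clec-209 the values fall from 134 to 332 CPM on day 6 to 0.819 to 2.73 on day 18, while clec-73 rises from 0.595 to 1.29 CPM to 18.3 to 45.3.

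A list of 18 members was chosen for published links to bacterial infection, and 17 of them were tested; clec-39, linked to resistance to Serratia marcescens, was too low for a test. At day 14, 9 rose and 4 fell, and on day 18, 2 rose and 11 fell, with a median log2 change of 0.65 and -1.27. Over all genes, 29.8 percent rose and 26.9 percent fell on day 14, and 29 and 28 percent on day 18. From day 14 to day 18, 14 of the 17 fell and none rose, with a median of -1.65, beside 23.5 percent of all genes lower in that step. Their summed level was 2283 ± 350 CPM on day 6, 3417 ± 530 on day 8, 2978 ± 1161 on day 14 and 885 ± 427 on day 18 (SD, n = 6 each).

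Among them, clec-60 and clec-61 are neighbours on chromosome II that are induced by bacteria such as Microbacterium nematophilum and Staphylococcus aureus. The lowest, median and highest libraries of clec-60 were 1.04, 1.77 and 2.78 CPM on day 6, 9, 11.3 and 13.1 on day 11, 11.6, 20.3 and 30.3 on day 14, and 2.62, 6.21 and 13.7 on day 18. The day 11 and day 14 libraries all lay above those of day 6, and the day 18 range touched the day 6 range at its lower end. The log2 fold changes were 2.64 on day 11 (SE 0.33, adjusted p = 2.42e-07), 3.51 on day 14 (SE 0.34, adjusted p = 4.56e-10) and 1.93 on day 18 (SE 0.32, adjusted p = 7.53e-06). With all 36 day 6 libraries the day 18 value was 0.92 (adjusted p = 0.00319). With the day 6 libraries of both N2 sets scaled together, clec-60 stood at 4.34 ± 2.28 CPM in the larger set and 1.94 ± 0.77 CPM in the time course (SD).

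In clec-61 the libraries stood at 0.229 to 1.96 CPM on day 6, 0.0852 to 1.12 on day 8, 5.25 to 8.85 on day 11, 3.13 to 11.2 on day 14 and 0.741 to 2.83 on day 18. The rise was called on day 11 (log2 3.23, SE 0.46) and day 14 (3.20, SE 0.46), and the day 18 value of 0.87 was not called (adjusted p = 0.106). Both neighbours were called higher on days 11 and 14. Day 11 was also high for clec-70, linked to Staphylococcus aureus, which stood at 0.332 ± 0.26 CPM on day 6, 4.15 ± 1.7 on day 11 and 0.147 ± 0.064 on day 18 (SD, n = 6 each). Its day 14 change differed between the library sets. It was log2 0.93 with libraries 1 to 3 alone (adjusted p = 0.0677) and 3.52 with libraries 4 to 6 alone (adjusted p = 3.95e-05).

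For clec-85, a readout of the PMK-1 pathway, the lowest, median and highest libraries were 332, 513 and 628 CPM on day 6, 703, 811 and 976 on day 8, 161, 310 and 599 on day 14, and 28.2, 71.4 and 118 on day 18. All day 8 libraries lay above all day 6 libraries, yet the change was not called (log2 0.79, adjusted p = 0.0798), while the day 18 fall was (log2 -2.80, SE 0.32, adjusted p = 1.06e-08). For clec-67, another member that depends on PMK-1, the day 6 libraries ran from 41.3 to 92.9 CPM and the day 18 libraries from 4.47 to 45.7 CPM, which overlap slightly (log2 -1.62, SE 0.40, adjusted p = 0.00115). For clec-65 they ran from 157 to 262 CPM and from 46.5 to 114 CPM (log2 -1.27), and for clec-63 from 990 to 1303 CPM and from 240 to 857 CPM (log2 -1.12); neither overlapped.

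The Bacillus thuringiensis response genes clec-4, clec-41 and clec-42 differed from each other. In clec-4 the day 18 libraries stood at 0.187 to 0.670 CPM and the day 6 libraries at 1.81 to 7.23 (log2 -3.48, SE 0.51). In clec-41 the day 8 libraries stood at 325 to 745 CPM and the day 6 libraries at 117 to 358, a rise (log2 1.28, SE 0.35, adjusted p = 0.018), and the day 18 value of -0.64 was not called. With libraries 1 to 3 alone the day 18 value of clec-41 was 0.41 (adjusted p = 0.15), and with libraries 4 to 6 alone it was -1.86 (adjusted p = 6.50e-04). In clec-42 the level was 3.19 ± 1.5 CPM on day 6 and 1.25 ± 0.44 on day 18 (log2 -1.35, called). The Staphylococcus aureus-linked clec-52 fell in steps, from 63.9 to 111 CPM on day 6 to 36.6 to 54.5 on day 11 and 7.34 to 13.9 on day 18, and the day 6 libraries lay above all libraries of days 11, 14 and 18.

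Markers of the intestine, where many of the listed members are made, moved with these falls. Of 12 intestine markers, 11 fell on day 18 and none rose (median log2 -1.16), with the 28 percent of all genes lower as the background. Their summed level ranged from 23954 to 31714 CPM on day 6 and from 9075 to 16435 CPM on day 18, and no marker was at 0. Falls were not particular to the intestine. On day 18 all 8 body wall muscle markers were lower (median log2 -1.86), and the 9 hypodermis markers, 5 lower and 1 higher, had a median of -1.50. Sperm markers rose (median 3.88). The part of any of these markers in the falls of C-type lectin genes was not tested.

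Libraries 1 to 3 and 4 to 6 stood apart at the late ages. At day 14 the family summed to 7363 to 9674 CPM in libraries 1 to 3 and to 4907 to 6013 CPM in libraries 4 to 6, and on day 18 to 3644 to 4255 and 2520 to 3257 CPM. The 12 intestine markers did the same, with 34834 to 40489 CPM in libraries 1 to 3 and 15885 to 18351 CPM in libraries 4 to 6 on day 14. The labels give no reason for the split and the same batch value for every library. The day 14 median of the tested members was -0.06 on the log2 scale with libraries 1 to 3 alone and -0.56 with libraries 4 to 6 alone, and that of day 18 was -1.02 and -1.48. Over all genes the same medians were 0.0045 and -0.021 on day 14 and -0.004 and -0.031 on day 18. With either set alone, 89 and 87 members fell on day 18, of which 83 and 80 were among the 94.

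Several members followed the split closely. At day 14, clec-41 was at 463, 592 and 643 CPM in libraries 1 to 3 and at 220, 159 and 325 CPM in libraries 4 to 6, with a log2 change from day 6 of 2.01 (adjusted p = 6.54e-06) in the former and -0.18 (adjusted p = 0.724) in the latter. For clec-85 the same values were 0.27 (adjusted p = 0.348) and -1.47 (adjusted p = 1.31e-04), and for clec-63 they were 0.95 and 0.01. The day 14 rise of clec-60 was seen in both sets, with log2 values of 3.46 and 3.58. In all, the median coefficient of variation of members at 5 CPM or more was 42.8 percent on day 14 and 37.5 percent on day 18, against 22.4 and 10.9 percent over all genes at that level, and it was 19.4 percent on day 6 against 9.5 percent.

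Of the members that rose by day 18, the largest rise was that of clec-151 (chromosome III, 4628465 to 4631132). Its lowest, median and highest libraries were 0.0266, 0.118 and 0.202 CPM on day 6, 0.425, 0.599 and 0.837 on day 11, 2.02, 2.62 and 4.16 on day 14, and 6.79, 8.28 and 15.7 on day 18. Each of these ages lay above the one named before it without overlap. The log2 fold change on day 18 was 6.38 (SE 0.35, adjusted p = 3.37e-16).

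Next came clec-79 (log2 5.92), clec-123 (5.04), clec-73 (4.85) and clec-119 (4.11). The libraries of clec-123 stood at 0.479 to 1.09 CPM on day 6, 5.41 to 8.86 on day 14 and 13.2 to 34 on day 18. Those of clec-79 stood at 0.139 to 0.571, 3.27 to 7.07 and 12.6 to 27.1 CPM at the same days. In clec-79, clec-123 and clec-119 the day 8 value was lower than that of day 6 (log2 -1.55, -1.33 and -1.27), whereas clec-73 already rose on day 8 (log2 1.28, SE 0.24), so the rising members did not begin together.

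Another 3 members, clec-117, clec-153 and clec-175, singled out after their values were seen, had the same late course at lower levels. Their means were 0.0681 to 0.0983 CPM on day 6, 0.824 to 1.2 CPM on day 14 and 3.26 to 4.1 CPM on day 18 (log2 5.49, 5.73 and 5.01). These 8 members rose while markers of sperm rose. All 14 sperm markers were called higher on day 18, where their summed level ranged from 358 to 744 CPM against 34.8 to 43.5 CPM on day 6, and it stood at 142 to 211 CPM on day 14. Within day 18 the sperm markers stood at 423 ± 60.4 CPM in libraries 1 to 3 and 654 ± 148 in libraries 4 to 6 (SD, n = 3 each). The rise from day 6 was larger in libraries 4 to 6 for 6 of the 8 members, such as clec-123 (log2 4.46 and 5.51) and clec-73 (4.54 and 5.03). It was not larger there for clec-151 (6.43 and 6.33) and clec-153 (5.98 and 5.58). All 8 members were picked for their rise, and no share over all genes is given for this split of libraries. Whether these C-type lectin genes are read from sperm or its precursors was not tested.

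Not all risers had this course. In clec-146, the only one of the 10 highest members per length to rise, the libraries stood at 23.8 to 31.5 CPM on day 6, 41.1 to 59.6 on day 8, 88.2 to 149 on day 11, 97.6 to 238 on day 14 and 92.4 to 191 on day 18. It was above day 6 without overlap at every later age, and the day 18 value was log2 2.40 (SE 0.19, adjusted p = 3.28e-12). In clec-5 the libraries stood at 6.13 to 11.4 CPM on day 6, 41.4 to 60.8 on day 11 and 21.4 to 46.2 on day 18 (log2 1.93, SE 0.22), so it was highest in mid-life and still above day 6 at the end. Smaller rises were those of clec-142, from 2.31 ± 0.30 to 7.79 ± 1.7 CPM, and clec-264, from 7.25 ± 1.0 to 14.4 ± 2.1 CPM (SD, n = 6 each). At days 11 and 14 clec-80 was also among the largest rises, at 60.8 ± 12 and 88.8 ± 36 CPM against 19.5 ± 3.3 CPM on day 6, and its day 18 value of 0.36 on the log2 scale was not called.

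The largest rises on day 8 were no longer called on day 18. In clec-174 the level was 3.63 ± 2.5 CPM on day 6, 14.0 ± 9.2 on day 8 and 0.216 ± 0.11 on day 18, and in clec-74 it was 2.06 ± 0.66, 5.48 ± 1.1 and 0.157 ± 0.12 CPM (SD, n = 6 each). On day 14, clec-174 was still higher than on day 6 with libraries 1 to 3 alone (log2 1.19, adjusted p = 0.0359). With libraries 4 to 6 alone it was not called (log2 -0.97, adjusted p = 0.0678). Both clec-174 and clec-74 lie in the same run of members on chromosome IV as clec-72. Also higher on day 8 were clec-125 (log2 1.15) and clec-66 (1.23), and lower was clec-196 (-1.36), whose day 6 libraries were the most uneven of the members at 5 CPM or more, with a coefficient of variation of 52.9 percent.

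The strain comparison asked what differs on day 6 when daf-16 is mutated. C-type lectin genes differed in both directions, mostly by less than 2-fold. In CF1038, 45 of 145 tested members were higher than in N2, or 31 percent, against 17.9 percent of all genes tested, and 34 were lower, or 23.4 percent, against 20.7 percent. By at least 2-fold, 8 were higher and 10 lower, again without a share over all genes. The median log2 difference was 0.05 over the tested members and -0.01 over all genes, and the family's summed level was 6430 ± 836 CPM in CF1038 (SD, n = 20) and 6893 ± 705 in N2 (SD, n = 30).

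The largest difference among members with at least 5 CPM was that of clec-15 (chromosome I, 12635172 to 12636542 and 12631185 to 12632555). Its lowest, median and highest libraries were 2.01, 15.5 and 57.3 CPM in N2 and 0.288, 0.900 and 3.32 CPM in CF1038, which overlap at the ends. The log2 difference was -3.98 (SE 0.44, adjusted p = 3.05e-10). Then came clec-72, with 4.39, 26.5 and 67.4 CPM in N2 and 0.787, 2.81 and 11.4 CPM in CF1038 (log2 -2.68, SE 0.35), and clec-42, with 2.76, 9.94 and 39.9 CPM and 0.353, 1.27 and 7.16 CPM (log2 -2.45, SE 0.36).

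Levels of these 3 members were uneven within N2. N2 libraries 1 to 10, 11 to 20 and 21 to 30 averaged 37.3 ± 13.3, 16.5 ± 12 and 5.74 ± 5.79 CPM for clec-15, and CF1038 libraries 1 to 10 and 11 to 20 averaged 1.90 ± 0.97 and 0.614 ± 0.25 CPM (SD, n = 10 each). For clec-72 the same N2 averages were 42.7, 27.3 and 10.2 CPM and the CF1038 averages 6.23 and 2.13 CPM. The labels attach no meaning to the library numbers. Within libraries 1 to 10 of both strains the log2 differences were -4.25 for clec-15, -2.74 for clec-72 and -2.52 for clec-42, and within libraries 11 to 20 they were -4.74, -3.68 and -3.44, all called.

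The infection-linked members leaned to lower levels in CF1038: 9 of 17 tested were lower and 3 higher, with a median of -0.56, beside 20.7 percent lower and 17.9 percent higher over all genes. For clec-52 the lowest, median and highest libraries were 40.0, 88.4 and 126 CPM in N2 and 17.1, 39.6 and 58.9 CPM in CF1038 (log2 -1.12, SE 0.11, adjusted p = 7.84e-12). Its library blocks were close, at 78.2 to 103 CPM in N2 and 38.6 and 41.1 CPM in CF1038. For clec-85 the level was 328 ± 75.9 CPM in N2 and 210 ± 82.4 in CF1038 (log2 -0.65), for clec-67 it was 78.1 ± 35.1 and 44.9 ± 17.3 CPM (log2 -0.80), and for clec-65 it was 208.6 ± 30.9 and 141 ± 37.0 CPM (log2 -0.56; SD, n = 30 and 20). With libraries 11 to 20 alone, clec-85 was not called (log2 -0.47, adjusted p = 0.157).

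The neighbours clec-60 and clec-61 parted in this comparison. For clec-61 N2 gave 0.323, 1.04 and 11.1 CPM and CF1038 gave 0.0269, 0.244 and 0.851 CPM as lowest, median and highest (log2 -2.77, SE 0.42, adjusted p = 7.15e-07). For clec-60 the level was 4.39 ± 2.32 CPM in N2 and 5.05 ± 2.0 CPM in CF1038, which was not called (log2 0.20, adjusted p = 0.369). The N2 blocks of clec-61 averaged 0.576, 1.36 and 3.74 CPM, and within libraries 1 to 10 the difference was -0.56 and not called (adjusted p = 0.154). Within libraries 11 to 20 it was -3.0 (adjusted p = 1.36e-06).

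Other members lower in CF1038 by the naming rule were clec-265 (log2 -0.90), clec-4 (-0.77), clec-146 (-0.73) and clec-218 (-0.70). In libraries 1 to 10 alone clec-218 was higher in CF1038, at log2 0.44, and its call was lost under 5 of 9 other settings. For clec-146 the libraries stood at 21 to 57.1 CPM in N2 and 16.2 to 32.2 CPM in CF1038.

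**Figure D3:**
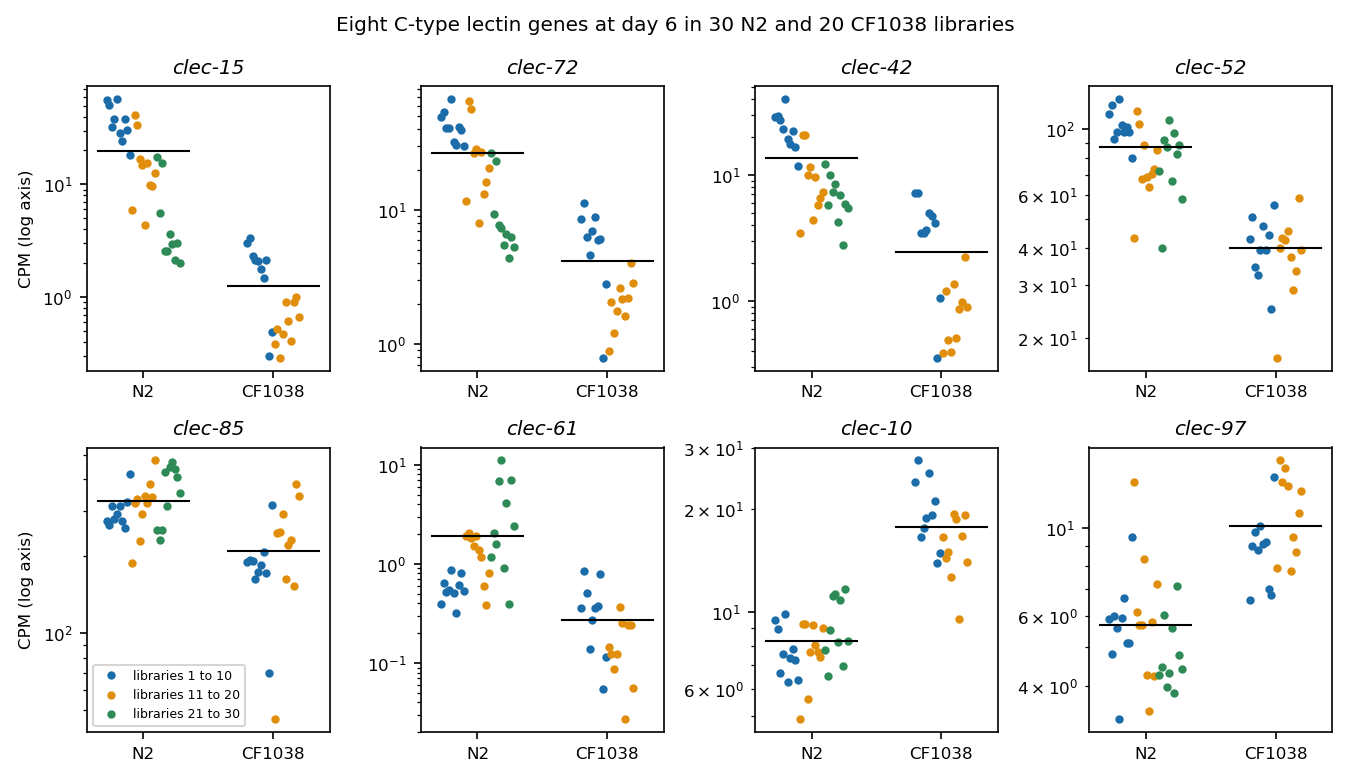
CPM (log axis) of 8 C-type lectin genes on day 6 in each of 30 N2 and 20 CF1038 libraries, coloured by blocks of 10 library numbers; black lines are means. In clec-15, clec-72 and clec-42 the N2 blocks differ from each other. These genes, clec-52 and clec-10 all differ between the strains both in libraries 1 to 10 and in libraries 11 to 20.

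Among members higher in CF1038, clec-10 (chromosome II, 402678 to 404180) led those with at least 5 CPM, with 4.88, 7.92 and 11.7 CPM in N2 and 9.58, 17.1 and 27.6 CPM in CF1038 as lowest, median and highest. The log2 difference was 1.11 (SE 0.09, adjusted p = 7.38e-15). Then came clec-97, at 5.68 ± 1.97 CPM in N2 and 10.1 ± 2.54 in CF1038 (log2 0.83, SE 0.12), clec-209, at 183 ± 63.4 and 305 ± 131 CPM (log2 0.73, SE 0.15), and clec-7, whose libraries ran from 4.78 to 33.5 CPM in N2 and from 3.37 to 54.2 CPM in CF1038 (log2 0.73). With libraries 1 to 10 alone clec-209 was not called (log2 0.29, adjusted p = 0.212). The others, clec-125, clec-54, clec-223, clec-205, clec-222 and clec-49, were higher by 0.23 to 0.62 on the log2 scale. Under 9 other settings the call was lost 4 times for clec-222, 2 times for clec-49 and 1 time each for clec-125 and clec-205.

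At a lower level, clec-232, picked after its values were seen, had 0.0274, 0.305 and 0.939 CPM in N2 and 1.01, 1.25 and 2.63 CPM in CF1038, with no overlap between the 30 and 20 libraries. Its log2 difference was 2.10. In the time course clec-232 fell, from 0.429 ± 0.26 CPM on day 6 to 0.0294 ± 0.037 on day 18 (SD, n = 6 each).

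The 2 sets of N2 libraries of day 6 carry the same labels apart from library names and numbers. Between them 15 of 154 tested members were higher in the larger set, or 9.74 percent, against 12.3 percent of all genes tested, and 21 were lower, or 13.6 percent, against 6.53 percent. The largest differences under the naming rule were the higher values of clec-15 (log2 2.50), clec-42 (1.96) and clec-72 (1.89) and the lower values of clec-86 (-1.06), clec-3 (-1.03) and clec-160 (-0.71). Both this comparison and that with CF1038 use the larger N2 set, so their values for clec-15, clec-42 and clec-72 are not independent. For clec-52 the sets did not differ by the test (log2 -0.14, adjusted p = 0.513), nor for clec-10 (-0.17, adjusted p = 0.309).

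Age and strain were compared in libraries with none in common, for the 137 members tested in both. Of these, 33 were lower on day 18 and higher in CF1038, or 24.1 percent, against 6.24 percent of all genes tested in both. Lower in both were 25, or 18.2 percent against 7.14 percent. Higher in both were 3 (clec-7, clec-73 and clec-161), or 2.19 percent against 3.93 percent. Higher on day 18 and lower in CF1038 were 3 (clec-12, clec-146 and clec-147), or 2.19 percent against 5.29 percent. Some day 18 risers, among them clec-151, clec-117, clec-153 and clec-175, had no strain test and are not counted here. Called in neither were 16, or 11.7 percent, against 28.3 percent of all genes. Taken alone, 63.1 percent of the members tested over age were lower on day 18, against 28 percent of all genes. In the strain comparison alone, 31 percent were higher against 17.9 percent, and 23.4 percent lower against 20.7 percent. The shares called in both comparisons depend in part on these single shares. Whether the age and strain calls are linked was not tested.

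Examples of the first kind were clec-74, with log2 values of -3.69 on day 18 and 1.01 in CF1038, clec-97 (-1.59 and 0.83), clec-223 (-2.26 and 0.42) and clec-36 (-1.55 and 0.75). Examples of members lower in both were clec-52 (-3.14 and -1.12), clec-72 (-5.83 and -2.68), clec-15 (-4.28 and -3.98) and clec-174 (-4.06 and -1.59).

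**Figure D4:**
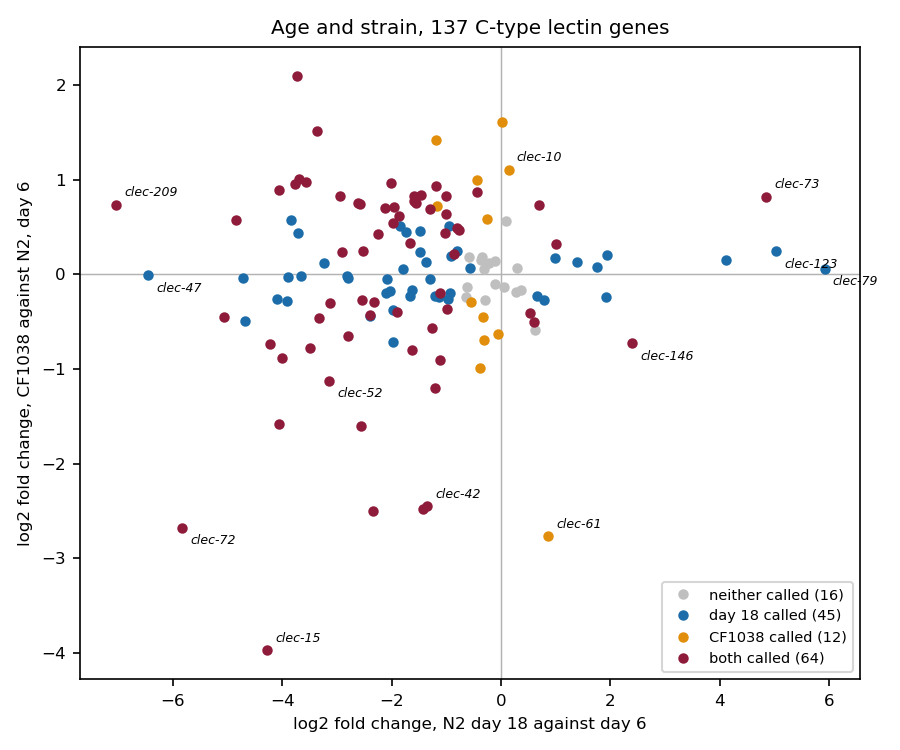
Log2 fold change on day 18 against day 6 in N2 (x axis) and of CF1038 against N2 on day 6 (y axis) for the 137 C-type lectin genes tested in both; colours give which comparison called the gene. The left side holds most called genes, with 33 called genes above and 25 below the zero line of the strain axis.

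C-type lectin genes often lie side by side. With gaps of at most 20000 bases, 161 of the 237 stand in runs of 2 or more members and 88 in 14 runs of 4 or more. Members of a run resemble each other in sequence in many cases, so that reads may be shared among them; 22 of the 237 members had a count that was not whole in at least 1 library, which marks reads divided between genes.

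In some of the 14 runs every member called on day 18 was lower. Of all tested members 63.1 percent were lower on day 18, against 28 percent of all genes. In CF1038, 31 percent of tested members were higher and 23.4 percent lower, against 17.9 and 20.7 percent of all genes. Whether a run moved together beyond these shares was not tested. In the run clec-136 to clec-139 on chromosome II (4615574 to 4621750), all 4 members were lower on day 18 and all 4 higher in CF1038, at levels of 0.301 to 1.22 CPM on day 6. In the run clec-93 to clec-99 on chromosome I (11142110 to 11158833), 5 of 7 members were tested, of which 4 were lower on day 18 and 5 higher in CF1038. In the run clec-62 to clec-66 on chromosome II, 4 of 5 members fell on day 18 and 3 were lower in CF1038. The run clec-165 to clec-170 on chromosome IV had all 6 members lower on day 18, with 1 higher and 1 lower in CF1038. In the largest run, 13 members on chromosome V from clec-40 to clec-33, 9 were tested over age, with 5 lower and none higher, and 10 in the strain comparison, with 7 higher and none lower. The runs clec-127 to clec-134 on chromosome II and clec-250 to clec-257 on chromosome V, 7 members each, had no member with enough reads for a test.

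Another run held members that moved in opposite directions. In the run of 12 on chromosome IV (3922165 to 4014235), which holds clec-67 to clec-79, 8 members were lower on day 18 and 3 higher. Here clec-73, which rose (log2 4.85), stands between clec-72, which fell (-5.83), and clec-74, which fell (-3.69). In CF1038, 3 of the 12 were higher and 6 lower, beside 17.9 and 20.7 percent of all genes. Among them clec-74 and clec-70 were higher (1.01 and 1.42), and clec-72, clec-75 and clec-76 were lower (-2.68, -2.48 and -2.51).

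**Figure D5:**
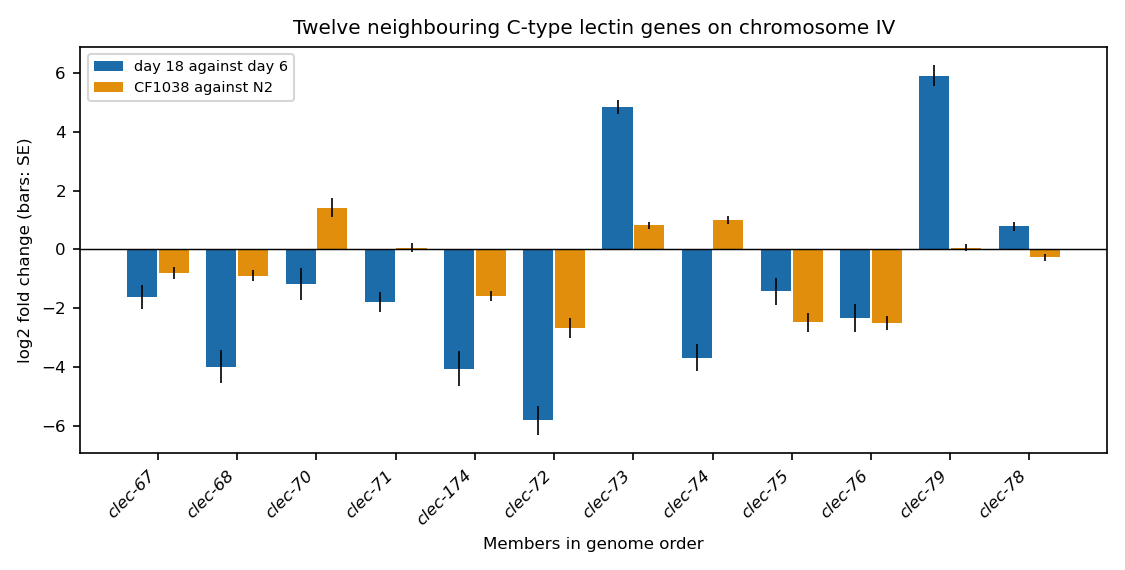
Log2 fold changes of 12 neighbouring C-type lectin genes on chromosome IV, in genome order, on day 18 against day 6 in N2 (blue) and in CF1038 against N2 on day 6 (orange); error bars are standard errors. The 3 blue bars of clec-73, clec-79 and clec-78 point up among 9 that point down, of which clec-70 was not called.

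By chromosome, the median log2 change on day 18 was -1.73 over 40 tested members on IV, -1.47 over 19 on I, -1.29 over 47 on V, -0.80 over 3 on X, -0.44 over 31 on II and 0.05 over 9 on III.

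Other lists give the setting of these genes. Galectins, the other large family of sugar-binding lectins, had 12 members tested: on day 14, 8 rose and 1 fell, beside 29.8 percent higher and 26.9 percent lower over all genes, and on day 18, 1 rose and 6 fell, beside 29 and 28 percent. The riser was lec-2, from 276 ± 61 to 1071 ± 141 CPM, and the largest fall was that of lec-10, from 135 ± 37 to 14.8 ± 6.9 CPM (SD, n = 6 each). In CF1038, 6 galectins were lower and none higher, beside 20.7 percent lower and 17.9 percent higher over all genes, with lec-5 at 83.8 ± 27 CPM against 156 ± 24 in N2.

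Of 18 regulators of immunity, 12 rose and 1 fell on day 14, and 6 rose and 3 fell on day 18. Over all genes 29.8 percent rose on day 14 and 29 percent on day 18, so the day 18 share of risers was near the background. The gene pmk-1, the p38 kinase, stood at 19.2 ± 1.0 CPM on day 6 and 24.1 ± 1.2 on day 18 (log2 0.33), and hlh-30, a transcription factor of the response to Staphylococcus aureus, stood at 90.8 ± 5.3 and 144 ± 8.5 CPM (log2 0.66). The transcription factor atf-7, a target of PMK-1, fell slightly, from 230 ± 9.0 to 170.5 ± 9.4 CPM (log2 -0.43; SD, n = 6 each). In CF1038, 13 of the 18, daf-16 among them, were lower and none was higher, beside 20.7 percent lower over all genes.

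Markers of other tissues, on day 18, gave 8 of 8 lower in body wall muscle, 5 lower and 1 higher of 9 in hypodermis, 5 lower and 1 higher of 10 in oocytes and germline, 3 lower and 1 higher of 8 in neurons, 2 lower of 6 in the pharynx and 1 lower of 2 in coelomocytes. Over all genes, 28 percent were lower and 29 percent higher. In CF1038 the intestine markers had 2 higher and 3 lower of 12, with summed levels of 13802 to 32264 CPM against 13884 to 36476 in N2, and the sperm markers had 6 higher and 1 lower of 13. The other lists in CF1038 had 3 of 8 lower in muscle, 4 of 8 in neurons, 1 of 9 in hypodermis, 1 of 6 in the pharynx and 2 of 2 in coelomocytes, and 4 of 10 higher in oocytes and germline, beside 20.7 percent lower and 17.9 percent higher over all genes. Their part in the differences of C-type lectin genes was not tested.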

How the data were processed

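The deposited table holds expected counts per gene, made by the authors with STAR 2.7.11b and RSEM 1.3.3 on WBcel235 after FastQC, per the submitters' processing notes. The kit and strand protocol were not given in the sources used here, so overlapping genes on opposite strands may share reads. Of all values, 2.73 percent were not whole; all were rounded after the 2 gene IDs of a shared symbol were added. Places came from the gene annotation of WBcel235.

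Genes were tested with edgeR 4.0.16 (filterByExpr, TMM, robust quasi-likelihood fits, 2-sided F test, Benjamini-Hochberg over all genes tested), in 1 fit for the 30 time-course libraries, 1 for CF1038 with the larger N2 set and 1 for the N2 sets. Every adjusted p is from this test. CPM are TMM-scaled, so levels are compared within a fit. The tests were tried on simulated data. DESeq2 1.42.0, other scaling, no filter and subsets of libraries were alternatives, run in R 4.3.3 and Python 3.11.15.

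Named members were the 10 per direction with the largest called change and at least 5 CPM at day 18 and in CF1038, 5 at each of days 8, 11 and 14 and 3 between successive ages and between N2 sets, the 10 highest per kb, the infection-linked list, members with shared symbols, and 4 for each combination of age and strain. Others were picked after values were seen. Members, lists and rules were chosen with earlier results of these data known. The copies of clec-15 had equal counts in 76 of 80 libraries, and those of clec-209 and clec-249 in 80.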

Additional observations from a re-analysis of the deposited data

Results flagged for a closer look

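Over 145 sets of 6 libraries (29 members at 5 ages), chance alone would put about 5 percent past the limit for a single library that stands far from the other 5, and 2 were past it. At day 6, clec-3 was at 11.6 CPM in library 5 and at 3.2 to 6.2 CPM in the others. At day 11, clec-50 was at 681 CPM in library 6 and at 528 to 571 CPM in the others.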

How the results depend on the processing

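Of 613 counts of called members under other settings, 596 stayed within 1.5 times the reported count, 12 were smaller and 5 larger. With libraries 4 to 6 alone, 7 members rose and 2 fell at day 8, 24 rose at day 14, and 31 fell from day 11 to day 14. With libraries 1 to 3 alone, 30 rose from day 11 to day 14. With all 36 day 6 libraries as day 6, 38 rose and 33 fell at day 8 and 48 rose at day 11. A fold of at least 2 left 7 risers at day 8, 15 falls from day 8 to day 11, 8 higher and 10 lower in CF1038, and 9 higher and 4 lower between the N2 sets. With libraries 11 to 20 alone, 29 were higher in CF1038. Leaving out single libraries gave 8 to 19 risers at day 8. The causes were not tested.

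Libraries of the same number were not treated as pairs in the main tests, and no comparison had every same-number correlation over 0.1. Many were over it in CF1038 against N2 (15 of 20, median 0.271) and in day 18 against day 14 (5 of 6, median 0.186). Whether the library number marks a shared origin cannot be told from these values. With the number as a replicate block, 26 members rose and 94 fell at day 18, and 55 were higher and 44 lower in CF1038 (52 and 39 in the same libraries without it).

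Of 940 alternative values for 40 named members, 922 kept direction and call, 17 lost the call, and 1 turned: clec-218 in CF1038, 0.44 with libraries 1 to 10. Adding or separating shared gene IDs changed no count by over 1.5 times. The promoter motif alternative was not run, as no sequences were used here. At this depth, 88 members had too few reads for a test over age.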
